A study of Capra hircus with 90 samples.

Results

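The response that the brainstem of goats shared across 3 respiratory sites after 3 h of breathing 6% CO2 was measured in 36 of the 90 libraries of the study, from 12 of its 30 goats. The exposed goats breathed 6% CO2 for 3 h (3hr_CO2, 6 goats), and the goats they were set against breathed room air for 24 h (24hr_Control, 6 goats). All were adult outbred females of at least 2 years, of breeds such as Alpine, Saanen and Toggenburg, assigned to the exposures at random. A room-air group of 3 h is not part of the samples used here, so length of confinement and CO2 cannot be told apart. Each goat gave a punch of frozen tissue at the nucleus of the solitary tract (NTS), the ventral respiratory column (VRC) and the retrotrapezoid nucleus (RTN). The numbers 1 to 6 within an exposure were taken to mark the same goat at each site, and each goat then counted once. In all 36 same-number pairs of libraries, a library's residuals correlated best with those of its own number (r 0.0714 to 0.381), against a median r of -0.038 for other numbers.

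The NTS receives the afferents of the carotid bodies, lungs and baroreceptors, the VRC holds the neurons that generate the breathing rhythm, and neurons of the RTN sense CO2 and pH. Inhaled CO2 acidifies blood and brain and is a strong dilator of cerebral vessels. Brain tissue is threaded by small vessels, and endothelium adjusts its transcripts to blood flow: among its flow-responsive genes are NOS3, which makes nitric oxide, and THBD, which holds back clotting. The VEGF family of secreted growth factors acts on endothelial receptors. Roles of genes given here are those known from human and mouse.

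Libraries held 9.64 to 30.4 M counts (median 22.3 M), and the sum over a goat's 3 sites was 53.1 to 74.2 M counts after 3 h of CO2 and 56.7 to 76.5 M counts in room air. A goat's level is the mean over its 3 sites of log2 CPM (counts scaled per M counts of the library), printed as CPM after undoing the log, that is as a geometric mean. A difference is the mean log2 level after 3 h of CO2 minus that in room air, tested with limma over 16339 genes, with p-values adjusted by the Benjamini-Hochberg method and called at an adjusted p under 0.05. Symbols were linked to 238 genes through the authors' deposited tables, and 235 of them were tested. Those genes were selected by the authors on these same libraries, so a symbol in the text is not independent evidence. Goats 5 and 6 of both exposures stood apart on the first principal component of goat levels, which held 15.3% of the variance. In a punch, fewer cells of a type and less RNA per cell cannot be told apart.

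Across the mean of 3 sites, 4 of 16339 genes were called (0.0245%). HYAL2, a cell-surface enzyme that cleaves hyaluronan, and THBD, the thrombin receptor of endothelium, rose (0.0122% of genes were called higher). VEGFA, the VEGF ligand that drives vessel growth and permeability, and the gene ENSCHIG00000022219 fell (0.0122% were called lower). All 4 had the same direction at the NTS, the VRC and the RTN, a property that 6085 of all genes tested had (37.2%; 17.5% higher and 19.8% lower at all sites). The pooled difference is taken on a mean over these same sites, so a gene called on it tends to share its direction across them. The shared direction of the called genes is therefore not evidence beyond the calls themselves. The share among all genes is not a like-for-like background for it. At an unadjusted limma p under 0.05 there were 946 genes (5.79%), 479 higher (2.93%) and 467 lower (2.86%). The median difference of all genes was -0.00471.

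**Figure D1:**
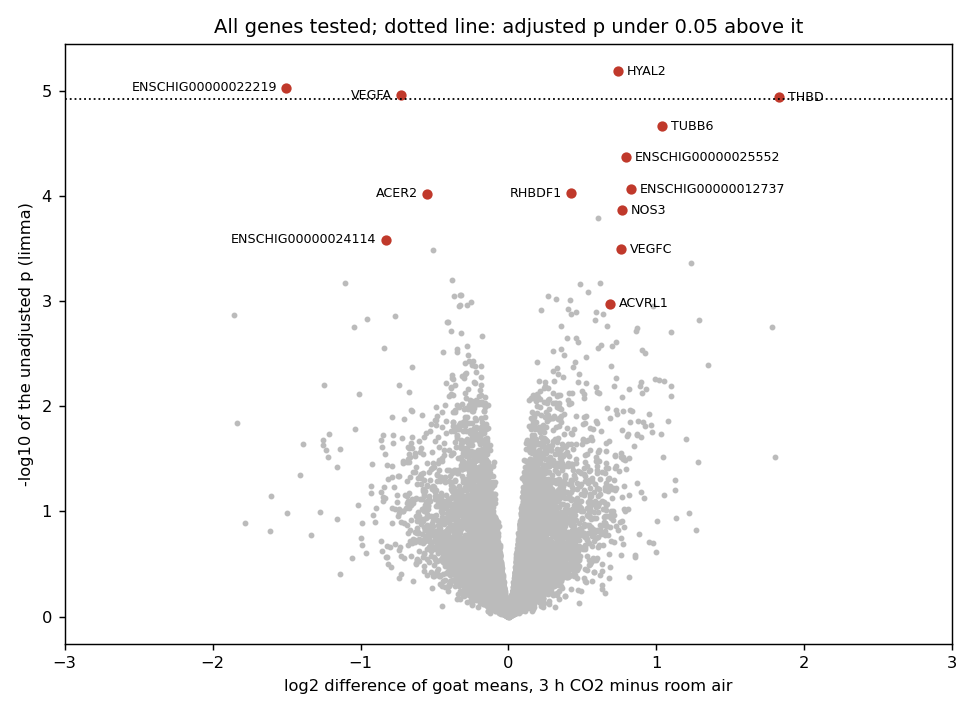
Each point is 1 of 16339 genes, with the log2 difference of goat means (3 h CO2 minus room air) on the horizontal axis and -log10 of the unadjusted limma p on the vertical axis. The red points carry the names of genes described in the text, and HYAL2, THBD, VEGFA and ENSCHIG00000022219 lie above the dotted line that separates the 4 called genes from the rest.

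HYAL2 was at 17.2 to 21.2 CPM in goats after 3 h of CO2 (median 18.9 CPM) and at 8.49 to 14.3 CPM in room-air goats (median 11.6 CPM). Every CO2 goat was above every room-air goat. The log2 difference was 0.74 (SE 0.12, 95% interval 0.49 to 0.99), with an adjusted p of 0.0464 in limma. By site the log2 difference was 0.89 at the NTS, 0.86 at the VRC and 0.47 at the RTN, each with SEs between 0.13 and 0.18. At each of the 3 sites all 6 CO2 libraries were above all 6 room-air libraries, with 15.1 to 18.9 CPM in CO2 libraries of the RTN and 8.20 to 14.8 CPM in room-air ones. The smaller value at the RTN was not called as a difference between sites (adjusted p = 0.342, edgeR's quasi-likelihood test within goats).

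THBD, which turns thrombin from a clotting into an anticoagulant enzyme, had the largest difference of the called genes. Its level was 7.05 to 19.8 CPM in CO2 goats (median 13.7 CPM) and 1.46 to 6.14 CPM in room-air goats (median 3.59 CPM). The groups did not overlap. The log2 difference was 1.83 (SE 0.31, 95% interval 1.18 to 2.48; adjusted p = 0.0464, limma). It was 1.63 at the NTS, 1.81 at the VRC and 2.05 at the RTN, with SEs of 0.34 to 0.40. The CO2 goats numbered 5 and 6, with 8.93 and 7.05 CPM, were the lowest of their group. Room-air goats 5 and 6, with 3.10 and 1.46 CPM, were the lowest of theirs. THBD was also the single symbol that the authors' deposited tables list at all 3 sites after 3 h.

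VEGFA, in contrast, was lower in every CO2 goat than in every room-air goat. Its level was 22.8 to 38.1 CPM after 3 h of CO2 (median 33.3 CPM) and 42.9 to 58.9 CPM in room air (median 54.6 CPM). The log2 difference was -0.72 (SE 0.12, 95% interval -0.98 to -0.47), with an adjusted p of 0.0464 in limma. The site values were close, at -0.66 in the NTS, -0.84 in the VRC and -0.67 in the RTN, and the difference between them was not called (adjusted p = 0.841, edgeR). At the RTN the libraries of the exposures did not overlap, whereas 1 of 6 CO2 libraries at the NTS and 2 of 6 at the VRC lay within the room-air range.

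ENSCHIG00000022219 has no symbol in the files. Its level was 2.28 to 3.62 CPM in CO2 goats (median 3.24 CPM) and 3.67 to 14.0 CPM in room-air goats (median 8.96 CPM). The groups were separated by a narrow gap, because room-air goat 1 was far below the other 5 room-air goats. The log2 difference was -1.50 (SE 0.25, 95% interval -2.03 to -0.97; adjusted p = 0.0464, limma). The site values were -1.07 at the NTS, -1.48 at the VRC and -1.96 at the RTN. At the NTS alone, no CO2 library was below the lowest room-air library, that of goat 1.

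These 4 calls sit close to the threshold. Their adjusted p of 0.0464 is 1 shared value, since the Benjamini-Hochberg method gave all 4 the value of the last ranked of them. They were thus called together. The unadjusted limma p was 6.4e-06 for HYAL2, 1.09e-05 for VEGFA and 1.14e-05 for THBD. On counts summed over a goat's sites, edgeR's quasi-likelihood test called 0 genes (1159 at an unadjusted p under 0.05) and DESeq2 36, which included all 4. Leaving out 1 goat at a time gave 4 calls without CO2 goat 6 (HYAL2, THBD, VEGFA and TUBB6) and 4 without room-air goat 3 (HYAL2, THBD, TUBB6 and ENSCHIG00000025552). There was 1 call without room-air goat 1 (ENSCHIG00000022219), and there were 0 calls without CO2 goat 1, 2, 3, 4 or 5 or room-air goat 2, 4, 5 or 6. The differences themselves kept their sign in all settings tried, from 0.65 to 0.87 for HYAL2, from 1.58 to 2.00 for THBD, from -0.86 to -0.63 for VEGFA and from -1.74 to -1.28 for ENSCHIG00000022219.

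**Figure D2:**
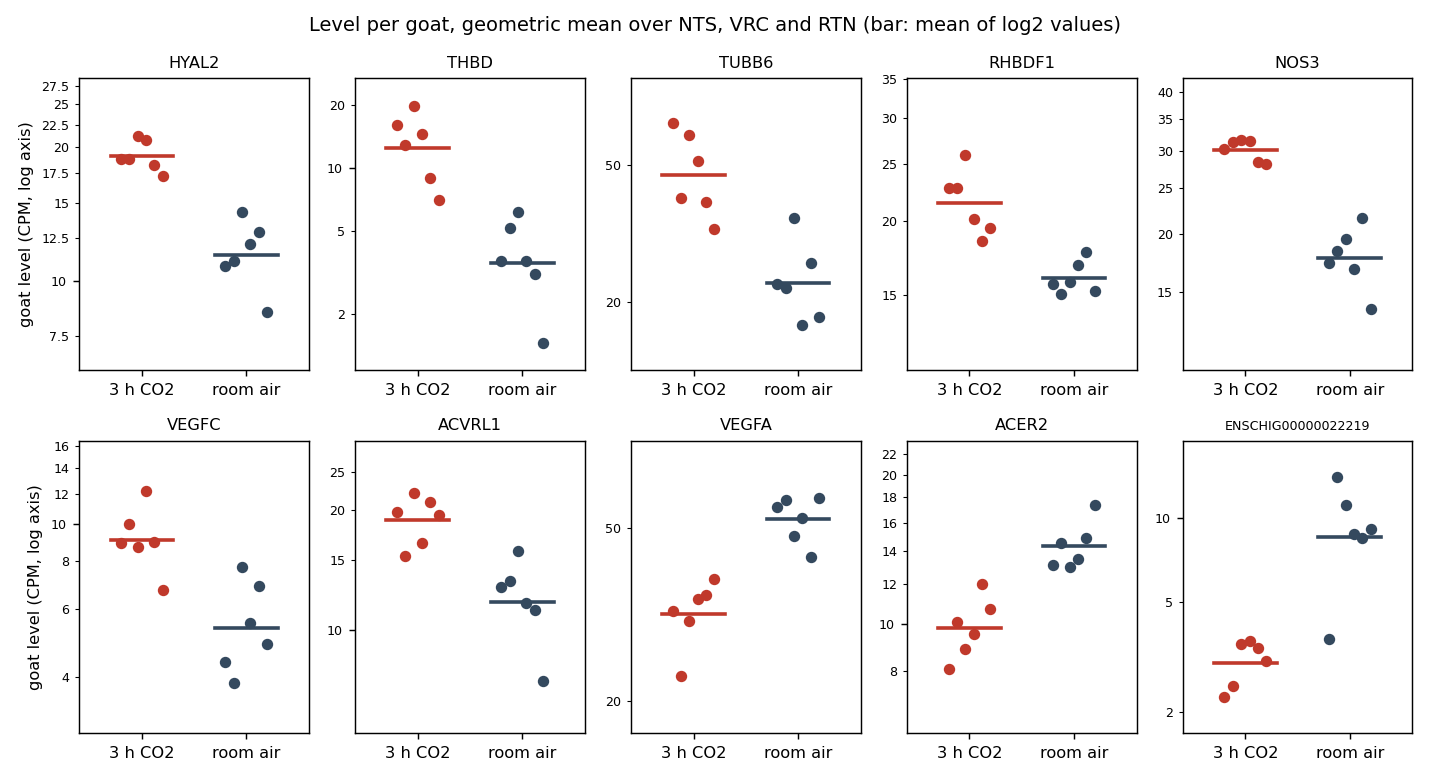
Each point is 1 goat's level in CPM (geometric mean over NTS, VRC and RTN, log axis), with 6 goats after 3 h of CO2 on the left of each panel and 6 in room air on the right; bars are the group means of the log2 values. HYAL2, THBD, RHBDF1, NOS3, VEGFA, ACER2 and ENSCHIG00000022219 show no overlap between the exposures, while a few goats overlap for TUBB6, VEGFC and ACVRL1.

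Levels that do not overlap between the 6 CO2 and 6 room-air goats were found for 55 genes (0.337%), 30 of them higher after CO2 (0.184%) and 25 lower (0.153%). A same-sign difference with an unadjusted limma p under 0.05 at each of the 3 sites taken alone was found for 33 genes (0.202%), 21 higher (0.129%) and 12 lower (0.0734%). Both held for 16 genes. Of the 33 genes, 8 carry a symbol: HYAL2, THBD, TUBB6, RHBDF1, NOS3 and VEGFC were higher, and VEGFA and ACER2 were lower. With each site tested alone and adjusted over all genes, limma called 0 genes at the NTS (1006 at an unadjusted p under 0.05, 6.16%), 2 at the VRC, EGLN1 and VEGFB (0.0122%; 1923, 11.8%) and 0 at the RTN (975, 5.97%). The authors' deposited tables, whose headers name a likelihood ratio per entry, list 11 entries at the NTS, 12 at the VRC and 2 at the RTN after 3 h. Those counts are not like for like with the limma calls. The authors' fit, as repeated here, took in all 90 libraries and 17730 genes. No deposited entry has an absolute log2 fold change under 0.501. The deposited tables list HYAL2 at the NTS (FDR 0.000377) and the VRC (FDR 0.000405), and THBD and TTR at the RTN (FDR 0.00134 each). They also list THBD and VEGFA at the NTS (FDR 0.01005 and 0.0385) and the VRC (FDR 0.000405 each).

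A list of 16 genes taken as flow-responsive in endothelium was drawn up with earlier results known. Of the 16, 5 carried a symbol, and 2 of these, HYAL2 and THBD, were called higher. The same 2 were the only ones called higher of the 235 symbols and of the 16339 genes tested (0.0122%). The median difference of the 5 was 0.74, against -0.0365 for the 235 symbols and -0.00471 for all genes tested. Of the 5, ACVRL1, HYAL2, NOS3 and THBD carry a symbol because the authors listed them after 3 h on these libraries, so the list is not independent evidence of its direction. NOS3, the nitric oxide synthase of endothelium, was at 28.1 to 31.7 CPM in CO2 goats (median 30.8 CPM) and at 13.8 to 21.6 CPM in room-air goats (median 17.8 CPM). The groups did not overlap, and the CO2 goats lay close together. Its log2 difference of 0.77 (SE 0.16) did not pass the threshold (adjusted p = 0.222, limma), with 0.91 at the NTS, 0.73 at the VRC and 0.67 at the RTN. In a fit restricted to the 2 exposures compared, NOS3 was the 1 gene called (adjusted p = 0.0124, limma), and HYAL2, THBD, VEGFA and ENSCHIG00000022219 were not. The main fit also holds the goats after 24 h of CO2, where NOS3 was at 29.6 and 33.1 CPM in goats 1 and 5. The other goats after 24 h of CO2 were at 15.5 to 18.5 CPM. Their part in the change of p between the fits was not tested.

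ACVRL1, the endothelial receptor for circulating bone morphogenetic proteins, was at 15.4 to 22.1 CPM in CO2 goats (median 19.6 CPM) and at 7.43 to 15.8 CPM in room-air goats (median 12.3 CPM). A single CO2 goat fell inside the room-air range. The log2 difference was 0.69 (SE 0.18; adjusted p = 0.566, limma), and the site values were 0.99 at the NTS, 0.64 at the VRC and 0.43 at the RTN. CAV1, the coat protein of caveolae, was the fifth member, at 107 to 204 CPM in CO2 goats and 121 to 189 CPM in room-air goats. Its log2 difference of -0.08 (SE 0.17) was within the spread of the goats.

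The VEGF ligands did not share a direction. Of the 10 ligands and receptors in the list, VEGFA, VEGFB and VEGFC carried a symbol, and 1 of them, VEGFA, was called lower, the only one of the 235 symbols called in that direction (0.0122% of all genes tested were called lower). VEGFC, the ligand of the lymphatic receptor FLT4, was at 6.73 to 12.2 CPM in CO2 goats (median 8.95 CPM) and at 3.86 to 7.71 CPM in room-air goats (median 5.19 CPM). Its log2 difference was 0.76 (SE 0.18; adjusted p = 0.379, limma), opposite in sign to that of VEGFA. The VEGFC difference was largest at the NTS, where it was 1.13 on the log2 scale (SE 0.20) and no library overlapped, and it was 0.50 at the VRC and 0.66 at the RTN. VEGFB, which binds the receptor FLT1, had a pooled log2 difference of -0.16 (SE 0.13) that summed up unlike sites, described further on. EGLN1, the prolyl hydroxylase that marks hypoxia-inducible factor for degradation, and VEGFA were the members with a symbol among 20 targets of that factor. EGLN1 had a pooled log2 difference of -0.10 (SE 0.089).

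TUBB6, a beta tubulin of microtubules, came closest to the threshold among the genes not called. Its level was 32.7 to 66.0 CPM in CO2 goats (median 45.7 CPM) and 17.2 to 35.2 CPM in room-air goats (median 22.3 CPM). The overlap was made by the lowest CO2 goat, number 6, and the highest room-air goat, number 3. The log2 difference was 1.04 (SE 0.19; adjusted p = 0.0704, limma), with 0.98 at the NTS, 1.25 at the VRC and 0.88 at the RTN. Without either of those goats TUBB6 passed, with an adjusted p of 0.0405 without CO2 goat 6 and of 0.0134 without room-air goat 3 (limma). The other members with a symbol of the list on cytoskeleton and cell shape, RHOU and S100A10, had log2 differences of -0.26 (SE 0.17) and 0.21 (SE 0.22).

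RHBDF1, an inactive rhomboid that carries the sheddase ADAM17 to the cell surface, was at 18.5 to 25.9 CPM in CO2 goats (median 21.5 CPM) and at 15.1 to 17.7 CPM in room-air goats (median 15.7 CPM). The groups did not overlap, and the log2 difference was 0.42 (SE 0.087; adjusted p = 0.171, limma). The site values were 0.59 at the NTS, 0.31 at the VRC and 0.37 at the RTN. ACER2, a ceramidase of the Golgi that yields sphingosine, was the other lower symbol besides VEGFA with an unadjusted p under 0.05 at each site. Its level was 8.11 to 12.03 CPM in CO2 goats (median 9.80 CPM) and 13.0 to 17.3 CPM in room-air goats (median 14.1 CPM), with no overlap. The log2 difference of -0.55 (SE 0.11; adjusted p = 0.171, limma) was much the same at the NTS (-0.61), the VRC (-0.48) and the RTN (-0.56).

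A few further identifiers without a symbol were among the genes of lowest p. ENSCHIG00000025552 was at 17.1 to 24.1 CPM in CO2 goats and 9.67 to 19.6 CPM in room-air goats, a log2 difference of 0.79 (SE 0.15; adjusted p = 0.115, limma). ENSCHIG00000012737 was at 9.68 to 13.4 CPM in CO2 goats and 4.20 to 9.25 CPM in room-air goats, a log2 difference of 0.83 (SE 0.17; adjusted p = 0.171, limma). ENSCHIG00000024114 was at 2.08 to 4.05 CPM in CO2 goats and 4.51 to 7.44 CPM in room-air goats, a log2 difference of -0.83 (SE 0.19; adjusted p = 0.353, limma). The last 2 did not overlap between the exposures, and all 3 had 1 sign at the 3 sites.

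**Figure D3:**
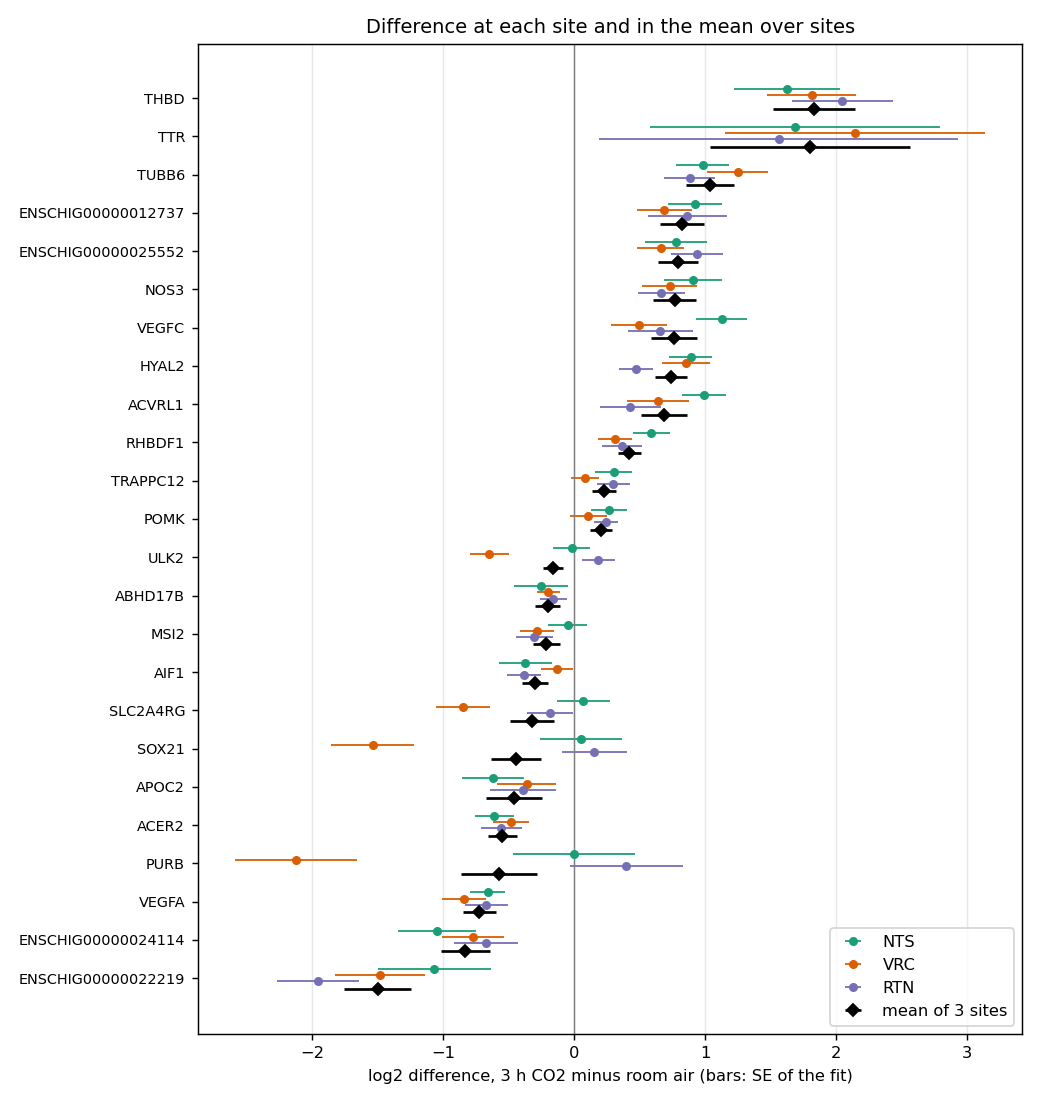
Log2 differences (3 h CO2 minus room air) with their SE at NTS, VRC and RTN (coloured points) and for the mean over sites (black diamonds), for the 24 genes named by rank. Genes such as THBD, HYAL2, NOS3, VEGFA and ACER2 have all 3 sites on 1 side of 0, whereas SOX21, ULK2 and PURB have a low VRC value with NTS and RTN values close to or above 0.

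The remaining genes named by rank had weaker pooled values, with adjusted limma p-values of 0.818 to 0.842. TTR, the thyroid hormone carrier made by choroid plexus, had a log2 difference of 1.80 (SE 0.76) and a level of 1.40 to 87.6 CPM in CO2 goats (median 5.30 CPM) and 1.37 to 2.65 CPM in room-air goats (median 1.94 CPM). The top value came from CO2 goat 4, whose RTN library held 1914 CPM. Without that goat the log2 difference was 1.06. TRAPPC12, a subunit of a vesicle-tethering complex, and POMK, a kinase of the sugar chain on dystroglycan, had log2 differences of 0.23 (SE 0.092) and 0.21 (SE 0.084), with overlapping goats.

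On the lower side, AIF1, the microglial protein also called IBA1, was at 51.3 to 56.2 CPM in CO2 goats (median 53.9 CPM) and 60.2 to 87.7 CPM in room-air goats (median 62.5 CPM). The groups did not overlap, the log2 difference was -0.30 (SE 0.099), and the site values were -0.37 at the NTS, -0.13 at the VRC and -0.38 at the RTN. APOC2, the cofactor of lipoprotein lipase, had a log2 difference of -0.46 (SE 0.22), ABHD17B, an enzyme that removes palmitate from proteins, of -0.20 (SE 0.095), and MSI2, an RNA-binding protein, of -0.21 (SE 0.10). These 3 had overlapping goats and the same sign at every site. SOX21, a transcription factor of neural cells, and SLC2A4RG, a regulator of the glucose transporter gene SLC2A4, did not move alike: their log2 differences were -1.54 and -0.85 at the VRC, 0.05 and 0.07 at the NTS, and 0.15 and -0.18 at the RTN. The differences between sites were called for both (adjusted p = 0.0245 for SOX21 and 0.0208 for SLC2A4RG, edgeR). ULK2, a kinase that starts autophagy, and PURB, a DNA-binding protein, likewise had their lowest value at the VRC, -0.65 and -2.13 on the log2 scale, with an adjusted p of 0.0608 each for the difference between sites (edgeR).

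The authors' deposited tables list 16 symbols at 1 or more sites after 3 h, of which ABCC11 and MFAP5 did not pass the filter on low counts here. Of the other members of those tables, RHBDD3, OVN and GPR179 had no shared difference. RHBDD3, a rhomboid-domain protein, was at 26.2 to 33.0 CPM in CO2 goats and 28.03 to 34.5 CPM in room-air goats, with log2 differences of -0.52 at the VRC, 0.11 at the NTS and -0.04 at the RTN, and the sites were called as unlike (adjusted p = 0.0489, edgeR). OVN was at 0.312 to 0.679 CPM in CO2 goats and 0.399 to 31.0 CPM in room-air goats, where goats 3 and 6 held 9.71 and 31.0 CPM and the other 4 were below 1 CPM. GPR179, an orphan receptor of retinal bipolar cells, stayed below 1 CPM in every goat of both exposures.

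Whether the 3 h difference was unlike between sites was tested within goats. In 107 of 16339 genes it was (0.655%; 1914 genes, 11.7%, at an unadjusted p under 0.05; edgeR's quasi-likelihood test), and none of the 4 genes called in the pooled comparison was among them. All 107 had differences of both signs among the sites. The VRC was the site farthest from the other sites in 98 of them, below the others in 94 and above in 4, and the NTS in 9. In all 46 of the 107 genes that carry a symbol the VRC had the lowest value. Symbols exist only for genes in the authors' deposited tables. The 8 symbols of lowest p, given next, are all listed there as lower at the VRC after 24 h, against the same room-air libraries. The low VRC value among symbols is therefore not independent evidence. The count rested on single goats: it was 1 without CO2 goat 4, 6 without CO2 goat 5, 11 without room-air goat 3 and 15 without room-air goat 4. It was between 38 and 58 without room-air goat 1, 2 or 6, 168 without CO2 goat 1, 270 without room-air goat 5 and 300 without CO2 goat 3. The counts without CO2 goat 2 or 6 are not given here, and all 12 such fits ran from 1 to 300. Without CO2 goat 2 or 6, none of the 8 symbols missed the threshold.

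VEGFB had the lowest p (adjusted p = 0.000252, edgeR). At the VRC it was at 13.0 to 22.2 CPM in CO2 goats (median 16.03 CPM) and 29.2 to 39.8 CPM in room-air goats (median 30.7 CPM), with no overlap. At the RTN the order was the other way, with medians of 25.0 CPM in CO2 goats and 18.3 CPM in room-air goats, and at the NTS the medians were 18.5 CPM in CO2 goats and 19.8 CPM in room-air goats. The log2 differences were -0.92 at the VRC, 0.41 at the RTN and 0.05 at the NTS, where VEGFA had -0.84, -0.67 and -0.66. EGLN1 had -0.85 at the VRC, 0.41 at the RTN and 0.14 at the NTS (adjusted p = 0.0154, edgeR).

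The growth factor NRG2 had log2 differences of -1.24 at the VRC, 0.58 at the RTN and 0.32 at the NTS, and the forkhead factor FOXQ1 of -1.29, 1.29 and 1.02 in the same order of sites (adjusted p = 0.011 each, edgeR). The transcription factor UBP1 had an adjusted p of 0.011, CCDC85C of 0.0122, and the zinc finger protein MAZ and the adaptor NCK2 of 0.0154 each (edgeR). All 4 were negative at the VRC, from -1.25 for CCDC85C to -0.50 for UBP1, and positive at the NTS and the RTN. Without CO2 goat 4, all of these genes but VEGFB missed the threshold, with adjusted edgeR p-values of 0.0543 to 0.0869. EGLN1, MAZ and NCK2 also missed it without CO2 goat 5 (0.0715 each), EGLN1 and MAZ without room-air goat 4 (0.0523 and 0.0591), and MAZ and NCK2 without room-air goat 3 (0.0809 each).

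**Figure D4:**
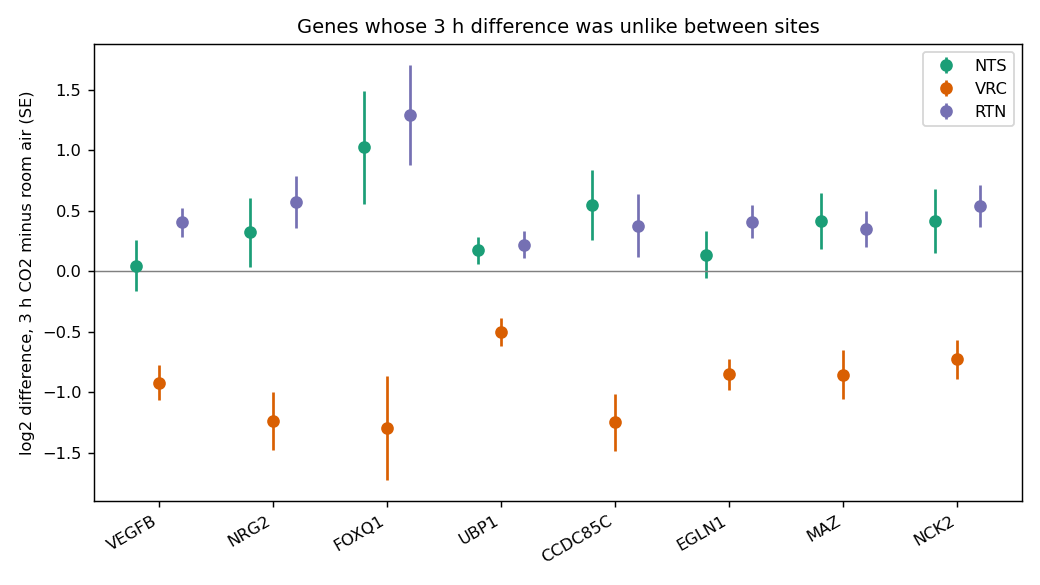
Log2 differences (3 h CO2 minus room air) with their SE at NTS, VRC and RTN for the 8 symbols of lowest p in the test of differences between sites. In each of the 8 genes the VRC value lies below 0 and the RTN value above it.

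The same pooled measure was taken after 24 h of 6% CO2 (24hr_CO2, 6 goats), which shares its room-air goats with the 3 h comparison, and after 7 d of 6% CO2 (7d_CO2, 6 goats) against 7 d of room air (7d_Control, 6 goats), which were extracted and sequenced in another batch. At 24 h limma called 0 genes, with 941 at an unadjusted p under 0.05 (5.76%), edgeR's quasi-likelihood test on summed counts 0, and DESeq2 3, namely VEGFA (adjusted p = 0.0411), ENSCHIG00000011258 and ENSCHIG00000026396. At 7 d limma called 0 of 16050 genes, with 570 at an unadjusted p under 0.05 (3.55%), edgeR 0 and DESeq2 10. HYAL2 had log2 differences of 0.74 (SE 0.12) at 3 h, 0.13 (SE 0.12) at 24 h and -0.20 (SE 0.11) at 7 d. THBD had 1.83 (SE 0.31), 0.64 (SE 0.31) and -0.15 (SE 0.19) at these times. VEGFA had -0.72 (SE 0.12), -0.61 (SE 0.12) and -0.19 (SE 0.10), and was the gene with the smallest step between 3 h and 24 h of the 10 plotted.

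After 24 h of CO2 the levels of HYAL2 and THBD overlapped those of room air, and so did VEGFA in its highest goat. Goats after 24 h of CO2 were at 10.1 to 17.0 CPM for HYAL2, 3.18 to 8.61 CPM for THBD and 26.7 to 45.6 CPM for VEGFA. Goats after 7 d of CO2 were at 10.6 to 13.9 CPM for HYAL2 and 3.21 to 6.33 CPM for THBD, against 12.2 to 18.1 CPM and 3.28 to 6.13 CPM in their own room-air goats. VEGFA was at 25.5 to 39.7 CPM after 7 d of CO2 and 32.8 to 43.0 CPM in 7 d room air. The 7 d room-air goats lay low beside the 24 h room-air goats (42.9 to 58.9 CPM), a contrast that was not tested and in which time and batch cannot be told apart.

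TUBB6 had 1.04 (SE 0.19) at 3 h, 0.36 (SE 0.19) at 24 h and -0.14 (SE 0.13) at 7 d on the log2 scale, NOS3 0.77 (SE 0.16), 0.22 (SE 0.16) and -0.30 (SE 0.16), and VEGFC 0.76 (SE 0.18), -0.18 (SE 0.18) and 0.16 (SE 0.18). ACER2 had -0.55 (SE 0.11), -0.30 (SE 0.11) and -0.18 (SE 0.11). The direct contrast of 24 h with 3 h of CO2 takes its differences without room-air goats, though these goats share in its estimate of the spread. It gave 0 calls in limma, with 1658 genes at an unadjusted p under 0.05 (10.1%), 0 in edgeR and 78 in DESeq2. HYAL2 differed by -0.61 (SE 0.12) and VEGFC by -0.94 (SE 0.18) in it, both at an adjusted limma p of 0.225, the lowest in that contrast. VEGFA differed by 0.11 (SE 0.12; adjusted p = 0.78, limma).

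**Figure D5:**
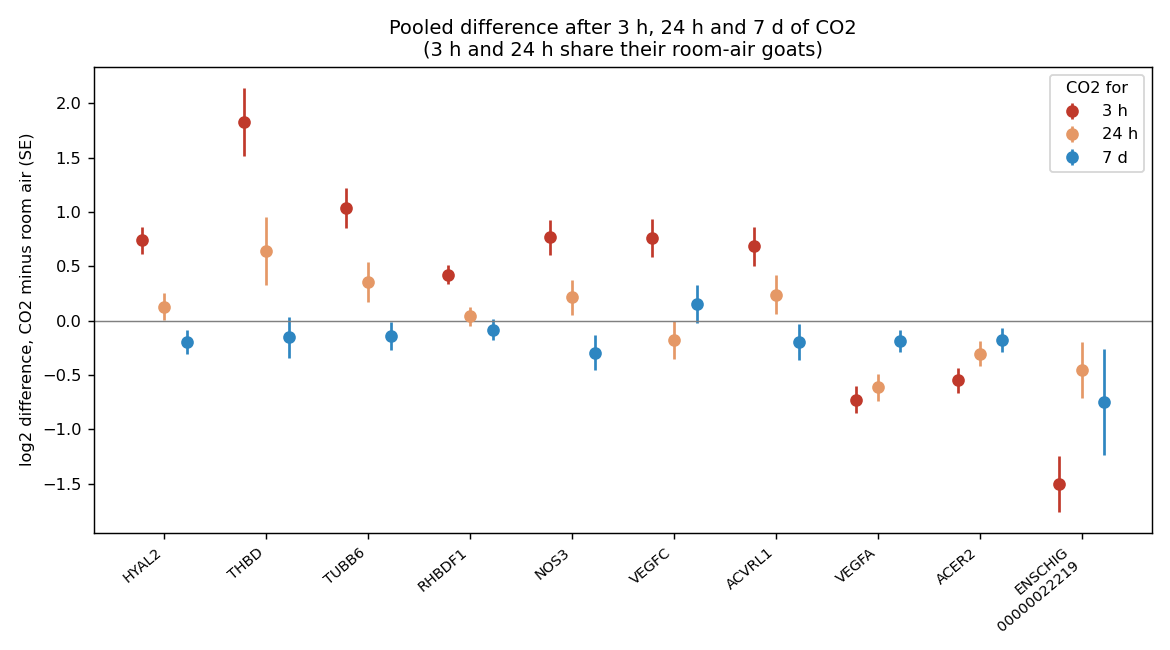
Log2 differences of goat means (CO2 minus room air) with their SE after 3 h, 24 h and 7 d of CO2 for 10 genes; the 3 h and 24 h points share their room-air goats. The 3 h points of the higher genes lie above their 24 h points, and VEGFA lies at -0.72 and -0.61 at these times.

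Of the 23 gene lists, 15 held a gene with a symbol. The list of 31 ribosomal proteins held 7 members with a symbol. These had 0 calls, where 0.0245% of all genes were called, and a median log2 difference of -0.0924. All 7 were below 0, as were 145 of the 235 symbols and 8421 of the 16339 genes. These 7 carry a symbol because the authors' deposited table lists them as lower at the NTS after 24 h, against the same room-air goats. The list of 26 genes of oxidative phosphorylation also held 7 members with a symbol, all from that same deposited table. These too had 0 calls, with a median of -0.0514, 2 above and 5 below 0. Further genes of both kinds with a symbol, such as RPL26, RPS10, NDUFA6 and COX17, are not on the 2 lists and were not counted. Counts of 0 among 7 are near the share of all genes called. The clock gene NR1D2 had a log2 difference of -0.03 (SE 0.092) and the endotoxin receptor CD14 of -0.02 (SE 0.17). The lists on immediate early genes, glucocorticoid response, acid-base and CO2 sensing, heat shock, Notch and BMP signalling, and markers of astrocytes, oligodendrocyte precursors and meninges held no linked symbol and were not analysed here. The same goes for the genes that define the NTS, VRC and RTN, so the site labels were not checked against markers.

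Among the other marker lists, the summed level (the arithmetic mean of CPM over a goat's 3 sites) of AIF1, CD14, CD1D and NCF4, 4 of 13 markers of microglia and myeloid cells, was 67.0 to 74.2 CPM in CO2 goats and 75.4 to 105 CPM in room-air goats, without overlap. AIF1 made up most of that sum. The other members did not share its value: CD1D had a log2 difference of 0.42 (SE 0.20), CD14 of -0.02 (SE 0.17) and NCF4 of -0.13 (SE 0.26), and the median of the 4 was -0.0742. The single endothelial marker with a symbol of 14, FOXQ1, was at 0.514 to 1.55 CPM in CO2 goats and 0.629 to 1.13 CPM in room-air goats. On the list of 10 markers of pericytes and smooth muscle, only MEOX2 carried a symbol. MEOX2 was at 0.579 to 1.76 CPM in CO2 goats and 0.867 to 2.76 CPM in room-air goats, and whether it marks those cells alone was not tested. The blood markers HBQ1 and HEMGN, 2 of 9, summed to 8.77 to 15.6 CPM in CO2 goats and 10.2 to 15.2 CPM in room-air goats. OLIG1 and OLIG2, 2 of 11 oligodendrocyte markers, summed to 28.3 to 93.5 CPM in CO2 goats and 56.6 to 83.5 CPM in room-air goats. PRPH, 1 of 14 neuronal markers, was at 12.6 to 609 CPM in CO2 goats and 17.0 to 418 CPM in room-air goats, and TTR, 1 of 11 markers of ependyma and choroid plexus, at 1.74 to 653 CPM in CO2 goats and 1.58 to 3.09 CPM in room-air goats. With a single vessel marker of low level on each list, the share of vessel cells in the punches was not measured, and its part in the higher levels of THBD, NOS3 and HYAL2 was not tested.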

How the data were processed

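Bulk RNA was taken with a lipid tissue kit including DNase digestion, and libraries followed the SMART-Seq v4 protocol with Nextera XT tagging and paired-end reads, per the labels' protocols. The tools edgeR 4.6, featureCounts 2.0.6, STAR 2.7.10b and fastp 0.24.0 appear in the submitters' processing notes; build, annotation and strand setting: not given in the sources used here. Hence reads of a gene and an antisense or overlapping partner cannot be told apart. The authors deposited raw counts of 25144 Ensembl goat genes, and 0 columns were left out. Their deposited comparison tables give fold changes and mean abundances as log2 values, the likelihood ratio as a score, and p-values and FDR, per the file headers.

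Symbols came from those tables: the authors' fit was repeated with a minimum count of 5 in filterByExpr (17730 genes), and each of 342 deposited entries matched 1 gene by mean abundance, giving 238 symbols. As a check, 93 entries deposited under an identifier matched that identifier. The smallest absolute log2 fold change deposited was 0.501.

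The analysis used R 4.3.3 with edgeR 4.0.16, limma 3.58.1 and DESeq2 1.42.0. After TMM scaling and filterByExpr, log2 CPM (prior count 2) were averaged over a goat's 3 sites and fitted in limma (trend and robust eBayes) with 18 goats (54 libraries) of the first batch, 24hr_CO2 goats included, to share the spread. All values in the pooled comparison come from 1 batch of 2. A mean of log values needs limma in place of a count test. Differences between sites used edgeR's glmQLFit (robust) on counts, with the goat as a fixed block and an F test of 2 interaction terms. All tests are 2-sided, and the 7 d comparison was fitted on its own 36 libraries. Differences at single sites were fitted in limma on that site's log2 CPM. The scripts were checked on simulated data.

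Members, lists and tests were chosen with earlier results of these data known. The text names genes called with a symbol, filled to 10 in each direction by lowest p, 2 identifiers in each direction, 8 symbols of lowest p for site differences and members of the lists. The other identifiers printed for DESeq2 calls were chosen after their values were seen.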

Additional observations from a re-analysis of the deposited data

Results flagged for a closer look

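Among 48 groups of 6 goats checked (24 genes in 2 exposures), 2 held a goat whose gap to its nearest neighbour was a large part of the group's range, and chance gives about 1 in 20. AIF1 in room-air goat 6 was at 87.7 CPM, against 60.2 to 65.5 CPM in the other 5 room-air goats, a gap of 0.775 of the range on the log2 scale. Without that goat the log2 difference of AIF1 was -0.21, against -0.30 with it. ENSCHIG00000022219 in room-air goat 1 was at 3.67 CPM, against 8.49 to 14.0 CPM in the other 5, a gap of 0.625 of the range on that scale. Without that goat its log2 difference was -1.74, with an adjusted p of 0.000752 in limma.

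The 3 h difference was unlike between the sites for 46 symbols by edgeR's quasi-likelihood test within goats, of which the 8 of lowest p are given. The adjusted p was 0.000252 for VEGFB, 0.011 for NRG2, FOXQ1 and UBP1, 0.0122 for CCDC85C, and 0.0154 for EGLN1, MAZ and NCK2. VEGFB passed in all 10 other settings and in all 12 fits without 1 goat, with adjusted p-values up to 0.0241. The other 7 missed the threshold with only the 2 exposures compared, at adjusted edgeR p-values of 0.13 to 0.164, and without CO2 goat 4, at 0.0543 to 0.0869.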

How the results depend on the processing

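The count of genes called in the pooled 3 h comparison was 4, all with 1 sign at every site, and stayed at 4 with RLE factors, with a filter of 1 CPM in 6 libraries and without the NTS library of under 10 M counts, a setting chosen after seeing the data. With all 30 goats it was 4, with TUBB6 in place of ENSCHIG00000022219. It was 0 with no filter, with edgeR on summed counts (1159 at an unadjusted p under 0.05, lowest adjusted p 0.0585), with a prior count of 0.5 (lowest 0.0511), with array weights (lowest 0.0512), with the VRC or the RTN left out of the mean, and without goats 5 and 6 of both exposures (chosen after seeing the data; lowest 0.0575). It was 2 with the NTS left out (THBD and ENSCHIG00000022219) and 1 with only the 2 exposures compared (NOS3). DESeq2 called 36 genes (28 higher, 8 lower; 32 with 1 sign at every site), and voom with the goat as a random block 31, all with 1 sign at every site; both included all 4. Leaving out 1 goat gave 0 to 4 for both counts. HYAL2 passed in 7 of 16 other settings, THBD in 8, VEGFA in 6 and ENSCHIG00000022219 in 7. With the VRC left out, SOX21, ULK2 and PURB had log2 differences of 0.10, 0.083 and 0.20. DESeq2 called 78 genes for 24 h minus 3 h, 3 at 24 h and 10 at 7 d, where the other settings and the fits without 1 goat gave 0. The count of site differences, 107, was 58 with no filter, 232 with DESeq2, 181 with voom, 1 with only the 2 exposures, 11 without the goat block, 28 without goats 5 and 6, 147 without the shallow NTS library, and 1 to 300 without 1 goat. The cause of these shifts was not tested.

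The replicate numbers were not used to pair goats across exposures in the main fit. Same-number goats correlated at -0.0579 to 0.368 (median 0.0773), 1 of 6 pairs was over 0.1, and 3 of 12 goats correlated best with their own number. Goats 5 and 6 were nonetheless the 2 highest of each exposure on the first principal component. Their values were 37.7 and 32.6 after 3 h of CO2, 24.7 and 21.2 in room air, and -0.68 and -7.92 after 24 h of CO2. What goats of the same number share was not tested. A replicate block in the fit gave 6 calls (5 higher, 1 lower), 3 of them among the main 4, the counts at other times stayed at 0, and site differences came to 84. Intervals rest on a spread shared over the 18 goats of the fit and moderated across genes, not on the 6 goats of each compared group alone. Low genes such as PURB and FOXQ1, near 1 CPM, rest on few counts.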
